A study of Mus musculus with 3 samples.

Results

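Transcripts of 10 enzymes of glycolysis were followed along the pathway, from Gpi1, which acts on glucose-6-phosphate, to Ldha, which makes lactate. The list was given as gene symbols (Gpi1, Pfkl, Aldoa, Tpi1, Gapdh, Pgk1, Pgam1, Eno1, Pkm and Ldha), and all 10 were found among the 24982 symbols of the deposited tables. RNA was sequenced from LKS cells, the bone marrow fraction that carries Kit and Sca1 but no lineage markers and contains the haematopoietic stem and early progenitor cells. There were 2 libraries from wild-type (WT) recipient mice and 1 library from CD73-/- recipient mice, here called the KO library. CD73 is the cell-surface enzyme, encoded by Nt5e, that converts extracellular AMP to adenosine. The labels give no strain, age, sex or treatment, leave out what the recipients received, and state neither whether the LKS cells descended from a donor or the recipient nor whether animals were pooled. The samples are also described as LLP cells, a term left unexplained.

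Glycolysis splits glucose into pyruvate in the cytosol and yields a small amount of ATP without oxygen. Its upper part, up to the aldolase step, spends ATP to make a doubly phosphorylated sugar and cut it into triose phosphates. Its lower part recovers ATP at the phosphoglycerate kinase and pyruvate kinase steps, and lactate dehydrogenase turns pyruvate into lactate while regenerating NAD+. Haematopoietic stem cells in the marrow are known for their reliance on glycolysis, and hypoxia-inducible factors are known activators of many of its genes.

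Pyruvate kinase M is made in the splice forms M1 and M2, which differ by a pair of mutually exclusive exons, and the deposited tables list a transcript of each. M2 is the form known from proliferating cells and M1 the form of muscle and other differentiated tissues. The exons are shown because they hold the sequence that tells the forms apart. Each is exon 9 of its transcript and has 167 bases, read from the reference transcripts (GENCODE, GRCm38). They match at 103 of 167 positions (61.7%), and capitals mark the 64 positions that differ.
Pkm M1 exon, chr9:59675029-59675195, plus strand: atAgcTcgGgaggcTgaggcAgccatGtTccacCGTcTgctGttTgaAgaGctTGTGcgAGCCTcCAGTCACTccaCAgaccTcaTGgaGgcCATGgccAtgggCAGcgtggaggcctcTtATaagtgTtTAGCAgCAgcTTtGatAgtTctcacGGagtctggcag
Pkm M2 exon, chr9:59675568-59675734, plus strand: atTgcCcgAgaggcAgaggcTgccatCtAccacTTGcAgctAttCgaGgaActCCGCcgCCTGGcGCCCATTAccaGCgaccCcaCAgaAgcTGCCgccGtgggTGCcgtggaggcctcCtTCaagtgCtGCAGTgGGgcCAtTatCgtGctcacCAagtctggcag

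Promoters were searched for ACGTG on either strand, the letters at the core of the site that hypoxia-inducible factors recognise. On the palindrome CACGTG, known as an E-box, the search matches both strands, and these overlapping matches were counted separately. The promoter table (RefSeq, GRCm38.p6, 250 bases before to 50 after each start) held a promoter for 10 of 10 members. The letters were found in at least 1 promoter of 6 members (Aldoa, Gapdh, Pgk1, Pgam1, Pkm and Ldha), and in 7 of the members' 16 promoters. They were found in 19.6% of all 32851 promoters and in at least 1 promoter of 21.8% of the 27025 genes. 1 promoter of Ldha (the upstream one of its pair) and the promoter of Pgk1 are printed because they held 5 and 2 matches and because these genes stood on opposite sides of the WT libraries. Capitals mark the matches, and 2 of the Ldha places are CACGTG, each of them matched on both strands.
Ldha promoter, chr7:46845554-46845853, plus strand: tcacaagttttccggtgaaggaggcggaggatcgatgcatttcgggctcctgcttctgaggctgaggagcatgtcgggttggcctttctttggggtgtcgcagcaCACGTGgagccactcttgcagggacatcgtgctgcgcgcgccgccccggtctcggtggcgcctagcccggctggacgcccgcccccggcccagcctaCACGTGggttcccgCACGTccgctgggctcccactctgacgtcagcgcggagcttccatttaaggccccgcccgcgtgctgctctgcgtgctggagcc
Pgk1 promoter, chrX:106186850-106187149, plus strand: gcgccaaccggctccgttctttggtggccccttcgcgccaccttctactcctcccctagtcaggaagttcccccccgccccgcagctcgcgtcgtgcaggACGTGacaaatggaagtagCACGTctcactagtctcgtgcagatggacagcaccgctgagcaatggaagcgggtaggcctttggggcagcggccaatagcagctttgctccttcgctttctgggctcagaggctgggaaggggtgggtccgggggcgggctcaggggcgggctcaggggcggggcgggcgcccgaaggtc
A match in these letters describes the sequence and does not show that a factor binds there.

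The genes lie on several chromosomes of mm10, in RefSeq coordinates of GRCm38.p6. Gpi1 is on chromosome 7 at 34201327 to 34230336, Ldha at 46842274 to 46855627 and Aldoa at 126795234 to 126800994 of the same chromosome. Tpi1 is on chromosome 6 at 124810586 to 124814158, and Gapdh is near it at 125161852 to 125166467. Pfkl is on chromosome 10 at 77986947 to 78009807, Pkm on chromosome 9 at 59656576 to 59679372 and Eno1 on chromosome 4 at 150236708 to 150248879. Pgam1 is on chromosome 19 at 41911871 to 41918665, and Pgk1 is on chromosome X at 106187100 to 106203699. Each is a protein-coding gene in the annotation, and the annotated transcripts of the table have from 4 exons in Pgam1 to 22 in Pfkl.

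Library totals over all genes were 361638 and 324954 counts for WT replicates 1 and 2 and 264704 counts for KO. CPM below are counts per 1000000 counts of these totals, and 3 counts, the limit that a count of 0 allows, correspond to 8.30, 9.23 and 11.3 CPM in the same order. Nt5e, the targeted gene, had 0 counts in all 3 libraries, so it gives no check of the genotype. Of the gate genes, Kit had 187, 207 and 147 counts and Ly6a, which encodes Sca1, had 60, 19 and 36. Of 10 stem and progenitor markers, 9 were tested and 8 stood below both WT libraries in KO, against 38.2% of all tested genes, with a summed level of 1817 and 2176 CPM in WT and 1028 CPM in KO. Mecom and Slamf1 had 0 counts in KO. The 8 mature neutrophil markers summed to 824 and 1114 CPM in WT and 378 CPM in KO, with 4 of the 6 tested below both WT libraries, against the same 38.2%. The 11 erythroid markers summed to 705 and 419 CPM in WT and 876 CPM in KO. Of the 5 tested, 4 stood above both WT libraries in KO, against 31.1% of all tested genes, and 1 stood below both. Hbb-bt had 151, 42 and 114 counts, Epor 3, 0 and 25 and Car1 0, 0 and 20, whereas Car2 had 92, 94 and 60. Hba-a1, Hba-a2, Hbb-bs and Klf1 were among those at 0 in every library. The marker lists of monocytes (171, 643 and 453 CPM), megakaryocytes (501, 582 and 941), T and NK cells (194, 105 and 155), stroma and endothelium (144, 191 and 128) and B cells (16.6, 64.6 and 7.56) had counts too. Several of these sums rest mostly on 1 gene. Nkg7 gave 188, 98.5 and 155 CPM of the T and NK sum. Pecam1 gave 144, 191 and 98.2 CPM of the stromal and endothelial sum, and Cxcl12 gave 0, 0 and 30.2. Itga2b gave 431, 391 and 740 CPM of the megakaryocyte sum. That sum also held Vwf, at 55.3, 175 and 106 CPM, and Pf4, at 5.53, 0 and 94.4 CPM. At 0 in all libraries were Cd3e, Cd3g, Cd8a and Klrb1c, Cd79a, Ms4a1, Ebf1 and Igll1, Gp1bb and Ppbp, and Lepr, Col1a1, Col1a2, Cdh5 and Kdr. The part of these cell markers in the values below was not tested, and in bulk RNA fewer cells of a type and less RNA per cell cannot be told apart.

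The comparison of KO with WT asked how the pathway is expressed in LKS cells of a CD73-deficient recipient. The enzymes stood on both sides of the WT libraries. Gpi1, Pfkl, Pkm and Ldha, at the top and at the end of the pathway, were below both WT libraries in KO, by 1.89-fold to 6.83-fold against the WT mean. Aldoa, Pgk1 and Pgam1, in the middle, were above both WT libraries, by 1.29-fold to 1.87-fold against the WT mean. For Aldoa against WT replicate 1 and Pgam1 against WT replicate 2, the difference was within counting error. Tpi1 and Gapdh lay between the WT libraries. None of the 9 tested members passed the test across all genes (edgeR quasi-likelihood test, Benjamini-Hochberg adjustment over 7984 genes), against 8 genes or 0.100% called over all genes, each of them higher in KO. At an unadjusted p under 0.05 there were 3 members, Pfkl, Pkm and Ldha, all lower, against 6.51% of all tested genes lower and 3.53% higher at that level. DESeq2 called none of the 9 either, with 3 members at an unadjusted p under 0.05, all lower, against 9.23% of all genes lower at that level. It called 11 genes in all (0.138%).

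**Figure D1:**
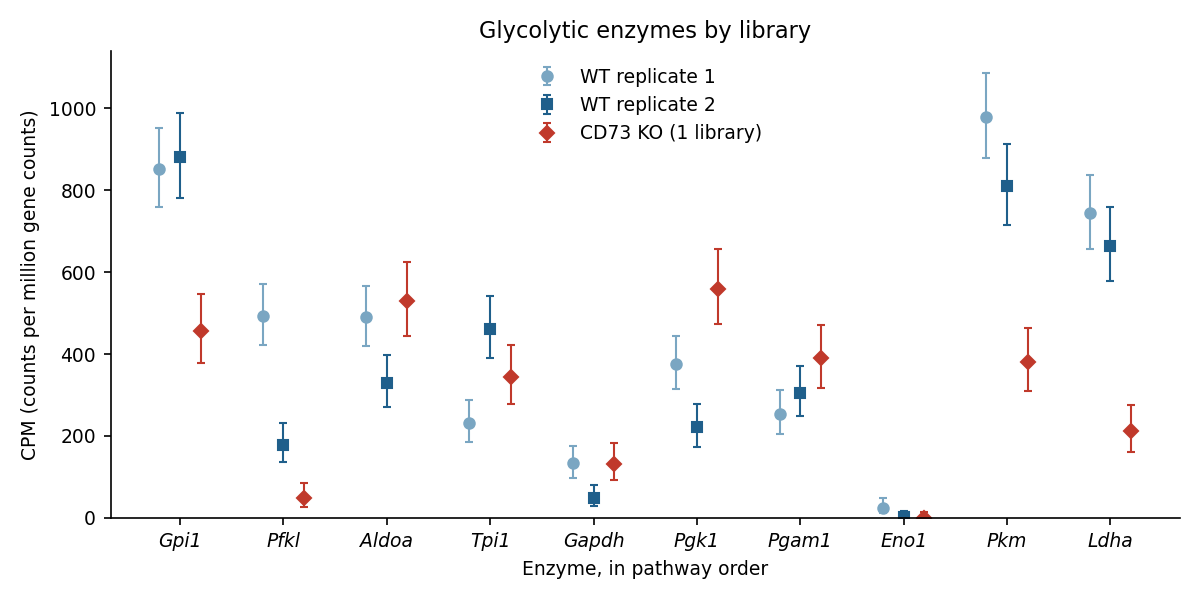
CPM (vertical axis) of each of the 10 enzymes in pathway order (horizontal axis). Points are single libraries, and bars are exact Poisson 95% intervals that cover counting error only. Gpi1, Pfkl, Pkm and Ldha lie lower in KO than in either WT library, Aldoa, Pgk1 and Pgam1 lie higher, and Eno1 is close to 0 in all 3.

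Gpi1 encodes glucose-6-phosphate isomerase, which makes fructose-6-phosphate. Its counts were 308, 286 and 121, or 852, 880 and 457 CPM, given here and below in the order WT replicate 1, WT replicate 2, KO. The WT libraries were close to each other, with a ratio of replicate 2 to replicate 1 of 1.03 (95% interval 0.877 to 1.22, exact binomial, counting error only). KO stood at 0.537 of WT replicate 1 (0.431 to 0.664) and at 0.519 of WT replicate 2 (0.416 to 0.645). The fitted log2 fold change was -0.88 (SE 0.54, edgeR adjusted p 0.63).

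Pfkl encodes the liver-type subunit of phosphofructokinase, which catalyses the committed step of glycolysis. Its counts were 178, 58 and 13, or 492, 178 and 49.1 CPM. WT replicate 1 was 2.76-fold above WT replicate 2, more than counting error, and the KO library was lower than both. KO was at 0.0998 of WT replicate 1 (0.0521 to 0.175) and at 0.275 of WT replicate 2 (0.138 to 0.508). The fitted log2 fold change was the lowest of the members, at -2.73 (SE 1.04, edgeR unadjusted p 0.0086, adjusted p 0.26). Taken against a single WT library, it was -3.29 with replicate 1 and -1.80 with replicate 2.

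Aldoa, the aldolase that cleaves fructose-1,6-bisphosphate, had 177, 107 and 140 counts, or 489, 329 and 529 CPM. KO was near WT replicate 1 (ratio 1.08, interval 0.859 to 1.36) and above WT replicate 2 (1.61, interval 1.24 to 2.09). Tpi1, the isomerase of the triose phosphates, had 84, 150 and 91 counts, or 232, 462 and 344 CPM. The KO value lay between WT values that differed by 1.99-fold, so the log2 fold change of Tpi1 was 0.59 with WT replicate 1 as the only control and -0.37 with WT replicate 2.

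Gapdh encodes glyceraldehyde-3-phosphate dehydrogenase, which reduces NAD+. It had 48, 16 and 35 counts, or 133, 49.2 and 132 CPM, so that KO and WT replicate 1 had nearly the same level and WT replicate 2 stood apart. In the reference transcripts, 90.4% of the 50-base words of Gapdh also occur in another gene, and 215 annotated pseudogenes hold some of them. The share was 72.2% for Eno1, 68.0% for Pgk1, 41.5% for Pgam1, 34.4% for Pkm and 25.3% for Gpi1. For Ldha it was 19.1%, for Aldoa 13.9%, for Tpi1 7.5% and for Pfkl 0.1%. How reads that match several places were counted is not given in the sources used here, so the counts of the members with high shares are uncertain, and the low level of Gapdh cannot be set against other genes.

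Pgk1, phosphoglycerate kinase, catalyses the step that first returns ATP. It had 136, 72 and 148 counts, or 376, 222 and 559 CPM, and had the most counts of all members in KO. Its KO value exceeded both WT values, with ratios of 1.49 (1.17 to 1.89) and 2.52 (1.89 to 3.39), while the WT libraries differed by 1.70-fold. The log2 fold change, the highest of the members, was 0.94 (SE 0.68, edgeR adjusted p 0.74). Pgam1, phosphoglycerate mutase, had 92, 99 and 103 counts, or 254, 305 and 389 CPM. The interval of its ratio of KO to WT replicate 2 included 1 (1.28, 0.960 to 1.70), and its log2 fold change was 0.52 (SE 0.76).

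Eno1, enolase 1, was the only member below the filter on low counts. It had 9, 1 and 0 counts, whereas Eno1b, a gene of nearly the same sequence, had 101, 139 and 112 counts, or 279, 428 and 423 CPM. Of the 50-base words of the Eno1 transcript, 70.5% occur in Eno1b, and Eno1b is listed on 2 rows, 1 of them at 0 in each library. Reads of the pair cannot be told apart over most of their length, so their counts are also given as a sum with Eno3, the muscle enolase, which had 0, 0 and 17 counts. The sum over the enolase genes was 304, 431 and 487 CPM, and no enolase passed the test. The deposited FPKM of Eno1 were 197, 24.4 and 0. At its counts they correspond to a length of 126 bases against an annotated 2027, and the FPKM of Eno1 were not used to compare genes.

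Pkm makes pyruvate and ATP from phosphoenolpyruvate, and it was the most counted member in WT replicate 1. It had 354, 263 and 101 counts, or 979, 809 and 382 CPM. The WT libraries differed by 1.21-fold, slightly more than counting error (replicate 2 at 0.827 of replicate 1, 0.702 to 0.973). KO was lower than both, at 0.390 of WT replicate 1 (0.309 to 0.488) and 0.471 of WT replicate 2 (0.371 to 0.595). The log2 fold change was -1.19 (SE 0.55, edgeR unadjusted p 0.031, adjusted p 0.43). The rows of the splice forms whose exons are printed above repeat their shared reads and held nearly equal counts. The M2 row had 354, 263 and 94 counts and the M1 row 348, 261 and 101, so M2 exceeded M1 by 6 and 2 counts in WT and M1 exceeded M2 by 7 in KO. These transcripts also differ outside exon 9, with lengths of 2432 bases for M2 and 2041 for M1, and the difference between rows cannot be assigned to the exon.

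Ldha, the muscle-type lactate dehydrogenase subunit, had 269, 216 and 56 counts, or 744, 665 and 212 CPM. The WT libraries differed by 1.12-fold, within counting error. KO was at 0.284 of WT replicate 1 (0.209 to 0.381) and at 0.318 of WT replicate 2 (0.233 to 0.429). The log2 fold change was -1.69 (SE 0.66, edgeR unadjusted p 0.0097, adjusted p 0.27), and taken against a single WT library it was -1.78 with replicate 1 and -1.60 with replicate 2. Ldhb, the heart-type subunit, had 0, 4 and 0 counts, so Ldha made up 98.2% to 100% of the counts of these L-lactate dehydrogenase subunits. Ldhd, the D-lactate enzyme, is not in this share and had 13, 0 and 8 counts.

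**Figure D2:**
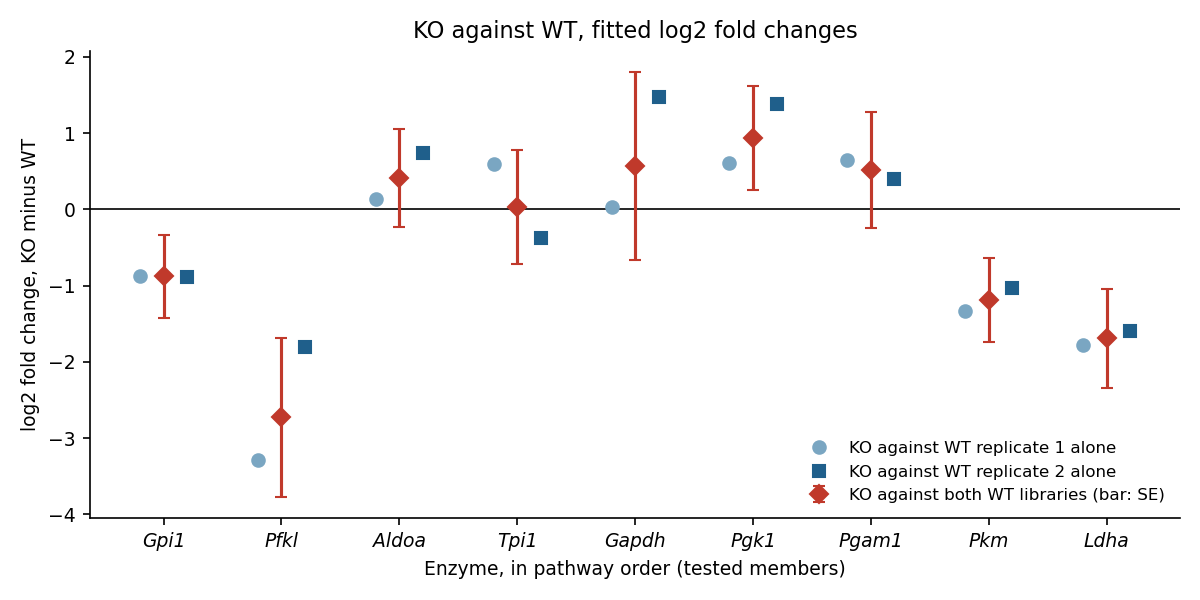
Fitted log2 fold change of KO minus WT (vertical axis) for the 9 tested enzymes in pathway order. Diamonds with SE bars use both WT libraries, circles and squares use a single WT library. Gpi1, Pfkl, Pkm and Ldha are below 0 against either WT library, and Tpi1 changes sign between them.

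The median log2 fold change of the 9 tested members was 0.03, ranging from -2.73 to 0.94, beside a median of -0.31 over all tested genes. KO was below both WT libraries in 4 of 9 members, against 38.2% of tested genes, and above both in 3 of 9, against 31.1%. These shares are near the background. Among the 8 members that reached 50 counts in a library, 4 lay below both, against 39.5% of the 2831 tested genes that reached it, and 3 lay above both, against 29.1%. A gap of at least 2-fold below each WT library was seen in 3 of these 8 (Pfkl, Pkm and Ldha), against 18.1%. The fitted SE of 0.54 to 1.23 set the precision for a single member, and 1 KO library leaves no replicate check on the KO side.

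Summed over the 10 enzymes, the level was 4576 and 3902 CPM in WT and 3052 CPM in KO. This is 0.720 of the WT mean of 4239 ± 477 CPM (SD, n = 2). The stretches of the pathway below were set after the values were seen and carry no test, and Eno1 (24.9, 3.08 and 0 CPM) is in none of them. Gpi1 and Pfkl together had 1344, 1059 and 506 CPM. Aldoa, Tpi1, Gapdh, Pgk1 and Pgam1 together had 1485, 1366 and 1953 CPM. Pkm and Ldha together had 1723, 1474 and 593 CPM. The middle stretch held 32.4% and 35.0% of the members' counts in WT and 64.0% in KO.

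**Figure D3:**
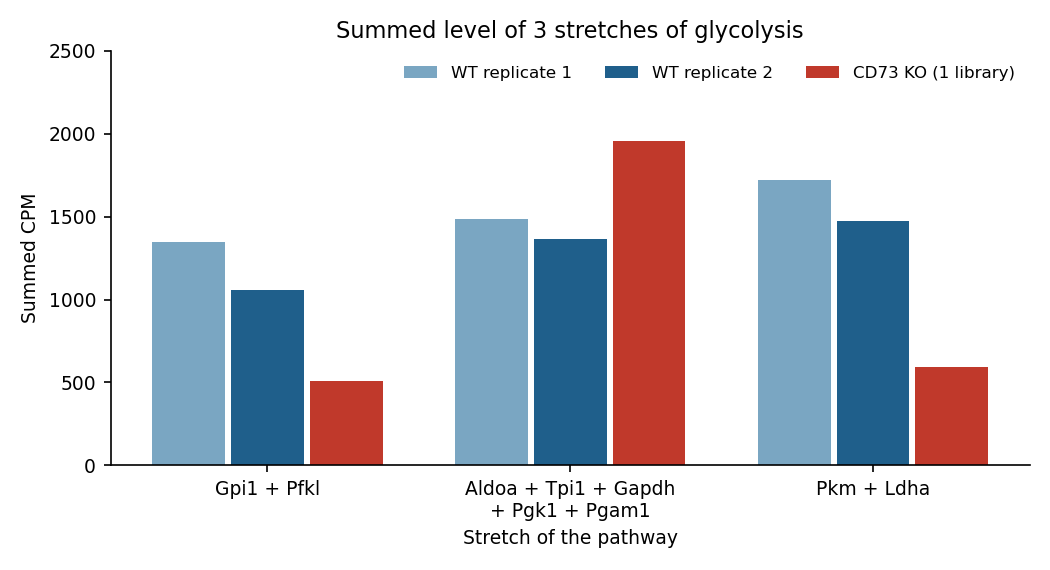
Summed CPM (vertical axis, from 0) of 3 stretches of the pathway in each library. The KO bar is the lowest for Gpi1 with Pfkl (506) and for Pkm with Ldha (593) and the highest for the 5 enzymes from Aldoa to Pgam1 (1953). Eno1 is not plotted.

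Per length, in deposited FPKM summed over a gene's transcripts and leaving out Eno1 and Gapdh, Ldha was the highest member in both WT libraries, at 493 and 413 FPKM, with Pkm next at 418 and 335. In KO the order of levels changed. Aldoa was highest at 409 FPKM, Pgk1 next at 311 and Tpi1 at 221, while Pkm and Ldha were at 159 and 141 FPKM. The Aldoa value in KO included 192 FPKM of a transcript listed at 0 FPKM in both WT libraries. Another Aldoa transcript, with at least as many counts, was at 274, 185 and 174 FPKM. The first place of Aldoa in KO is therefore uncertain. Pgam1, at 215 FPKM in KO, lay close to Tpi1, and Gpi1, at 161, lay close to Pkm. Pfkl was at 133, 48.2 and 13.4 FPKM. Gapdh was listed at 111, 41.2 and 111 FPKM and is left out of this order because of its shared words. Pgk1, Pgam1 and Pkm, with shares of 68.0%, 41.5% and 34.4%, were kept, so their places in the order are uncertain too.

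Transcript length differed between the members, from 1273 bases in Gapdh to 3730 in Pfkl. The members below both WT libraries had 2884 (Gpi1), 3730 (Pfkl), 2432 (Pkm) and 1588 bases (Ldha), and those above both had 1511 (Aldoa), 1825 (Pgk1) and 1775 (Pgam1). Of the tested genes that reached 50 counts, 2808 had a known length. In 4 equal groups by length their median log2 fold change was 0.01 in the shortest (up to 1889 bases) and -0.22, -0.32 and -0.37 in the longer ones. The relation was weak, with a Spearman correlation of length and log2 fold change of -0.089. Between the WT libraries, the median log2 difference of replicate 2 minus replicate 1 was -0.20, -0.04, -0.08 and -0.002, from shortest to longest. The part of length in the members' values was not tested.

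Isozymes shared several steps, and their mix differed between libraries. Pfkl made up 82.4% of the phosphofructokinase counts in WT replicate 1 (exact binomial 95% interval 76.7% to 87.2%), 36.7% in WT replicate 2 (29.2% to 44.7%) and 11.2% in KO (6.10% to 18.4%). The WT libraries themselves disagreed on this mix. Pfkp, the platelet-type subunit, had 13, 80 and 56 counts, so it already exceeded Pfkl in WT replicate 2. Pfkm, the muscle-type subunit, had 25, 20 and 47 counts, which is 11.6% and 12.7% of the step in WT and 40.5% in KO. The 3 subunits together stood at 597, 486 and 438 CPM, so the step as a whole differed less than Pfkl did. None of the 3 passed the test (adjusted p 0.26 for Pfkl, 0.78 for Pfkm and 0.90 for Pfkp, edgeR).

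Hexokinase, the step before Gpi1, is not among the 10 members but feeds them. Hk1, the widely expressed form, had 105, 93 and 150 counts, or 290, 286 and 567 CPM (log2 fold change 1.01, SE 0.69, edgeR adjusted p 0.69). Hk3, a form of blood cells, had 203, 105 and 136 counts, and Hk2, the inducible form, had 11, 31 and 23. Together the hexokinases had 882, 705 and 1167 CPM, on the opposite side of the WT libraries from Gpi1. Bpgm, which makes the 2,3-bisphosphoglycerate of red cells, had 5, 12 and 52 counts (log2 fold change 2.98, SE 1.38, edgeR unadjusted p 0.031, adjusted p 0.42). Of 20 isozyme and side-step genes, 10 had 0 counts in every library, among them Pklr, Aldoc and Eno2. The 8 tested ones all had a positive log2 fold change against the WT pair, beside a median of -0.31 over all tested genes. Of them 0 passed the test, and Eno3 passed the filter through KO alone. Only 4 of the 8 stood above both WT libraries, against 31.1% of all tested genes, and 0 below both, against 38.2%. Hk2, Hk3, Pfkp and Ldhd lay between the WT libraries, and their sign changed with the WT library used as the only control. Gapdhs had 3, 0 and 0 counts.

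**Figure D4:**
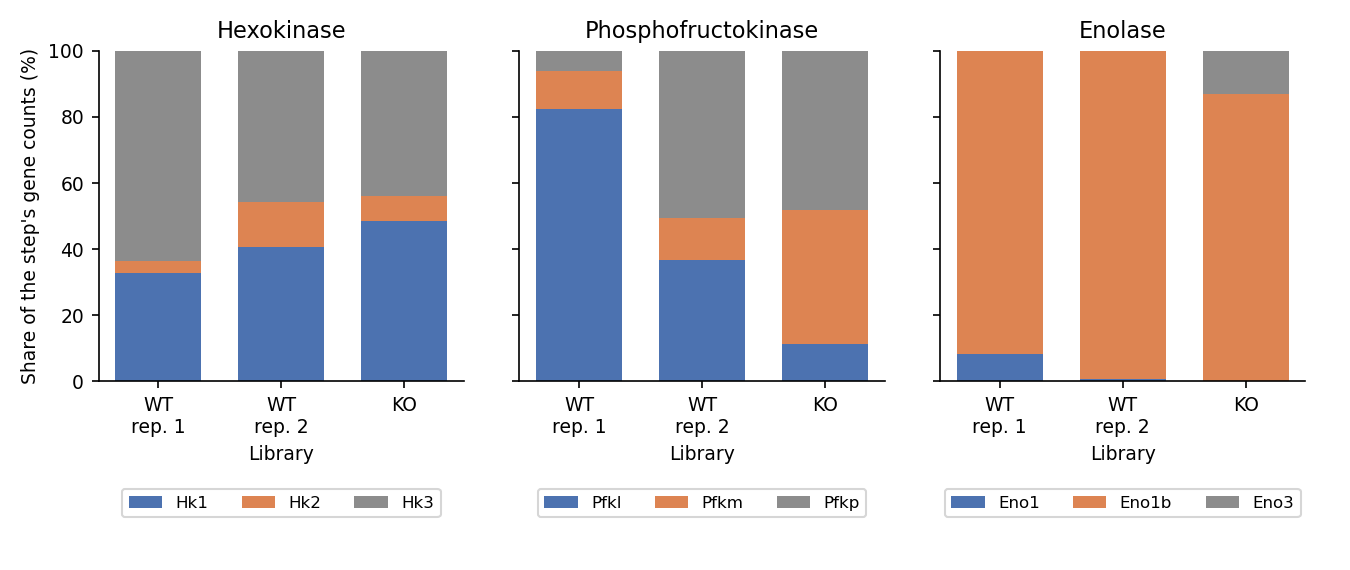
Share of gene counts (vertical axis, %) that each isozyme takes of the hexokinase, phosphofructokinase and enolase steps in each library. The Pfkl share differs between the WT libraries as well as in KO (82.4%, 36.7% and 11.2%). Eno1b and Eno1, whose reads overlap in sequence, share the enolase counts with Eno3, which is at 0% in WT and 13.2% in KO.

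Of the genes that carry glucose in and lactate out, Slc16a1, the lactate and pyruvate carrier MCT1, had 20, 17 and 1 counts, and Bsg, its chaperone at the membrane, had 94, 43 and 29. The glucose carriers Slc2a1 and Slc2a3 had 9, 2 and 1 and 70, 0 and 5 counts. In this list 3 of 13 genes were tested, 0 passed and all 3 had a negative log2 fold change. The median over all tested genes was -0.31. Slc16a1 and Bsg stood below both WT libraries, 2 of 3 against 38.2% of all tested genes. Slc2a3 lay between the WT libraries, at -3.30 against WT replicate 1 alone and positive against WT replicate 2, which had 0 counts. Among 17 regulators, 10 were tested and 0 passed, with 3 positive and 7 negative values (median -0.99). Myc, a transcription factor known to drive glycolytic genes, had 155, 227 and 85 counts. Meis1, a stem cell factor, had 80, 111 and 31, Hif1an, which inhibits hypoxia-inducible factor, had 28, 98 and 17, and Trp53 had 89, 37 and 70. The hypoxia-inducible factor genes Hif1a and Epas1, named after their values were seen, had few counts. Hif1a had 1, 2 and 0 and Epas1 had 3, 23 and 7. Of 16 hypoxia-inducible factor targets outside glycolysis, 9 were tested, 0 passed, and 4 were positive and 5 negative (median -0.59). Bnip3l, a mitophagy receptor, had 63, 61 and 6 counts (log2 fold change -2.94, SE 1.39, edgeR adjusted p 0.44). Ndrg1 had 4, 86 and 6 counts and Ero1l 8, 31 and 18, each with WT libraries far apart.

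Branches that leave glycolysis gave mixed values. In the pentose phosphate pathway 7 of 9 genes were tested and 0 passed, with 3 positive and 4 negative values. Pgls, the 6-phosphogluconolactonase, had 27, 24 and 124 counts, or 74.7, 73.9 and 468 CPM (log2 fold change 2.69, SE 0.91, edgeR unadjusted p 0.0032, adjusted p 0.21). Tkt, the transketolase that returns sugars to glycolysis, had 389, 203 and 281 counts, Taldo1 had 84, 100 and 36, and Pgd had 61, 75 and 37. Rpia, the ribose-5-phosphate isomerase, named after its values were seen, was on the other side from Pgls, with 81, 31 and 4 counts (log2 fold change -3.33, SE 1.53, edgeR unadjusted p 0.029, adjusted p 0.42). In the serine and glycerol branches 6 of 8 genes were tested and 0 passed. Phgdh, which takes 3-phosphoglycerate into serine synthesis, had 120, 56 and 11 counts (log2 fold change -2.55, SE 1.17, edgeR unadjusted p 0.029, adjusted p 0.42), whereas Shmt2 had 88, 84 and 119. Psat1 had 53, 5 and 25 counts and Shmt1 26, 17 and 14. In gluconeogenesis and glycogen metabolism 7 of 14 were tested, 0 passed and the median was -0.36. Pck2 had 98, 35 and 38 counts, G6pc3 50, 49 and 42, Pygl 54, 48 and 30 and Gys1 17, 18 and 5.

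Pyruvate entry into mitochondria was covered by 14 genes, of which 8 were tested and 0 passed, with 6 positive and 2 negative values (median 0.95). The subunits of pyruvate dehydrogenase stood on different sides of WT. Pdha1, the alpha subunit, had 21, 66 and 14 counts, while Pdhb, the beta subunit, had 43, 29 and 75 and Dld, the shared dihydrolipoamide dehydrogenase, had 13, 31 and 38. Pdk1, a kinase that shuts the complex and also stands in the hypoxia list, had 73, 11 and 33. Among 20 tricarboxylic acid cycle genes 19 were tested, 0 passed, and the median was -0.05. Idh3b had 73, 119 and 17 counts, Idh2 142, 112 and 32 and Sdha 114, 117 and 40, while Ogdh had 68, 58 and 102.

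The 10 proliferation markers summed to 4751 and 3628 CPM in WT and to 4537 CPM in KO, and the sum joins genes on opposite sides of WT. Of the 10 tested, 3 lay above both WT libraries, against 31.1% of all tested genes, and 3 below both, against 38.2%. Of these markers 0 passed. Mki67, the largest term, had 569, 408 and 407 counts. Cdk1, the mitotic kinase, had 74, 19 and 130 counts (log2 fold change 1.93, SE 0.82, edgeR unadjusted p 0.019, adjusted p 0.35), while Mcm2, a subunit of the replicative helicase, had 154, 74 and 35. The part of proliferation in the enzymes' values was not tested. Of the 736 other genes with at least 50 counts in every library, those whose mean-centred log2(CPM + 1) over the 3 libraries lay nearest to that of the summed members were Cox8a, Ucp2 and Luc7l3. Cox8a had 301, 255 and 200 CPM, Ucp2 758, 649 and 521 and Luc7l3 285, 249 and 196. With 3 libraries this likeness describes an order of values and no more.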

How the data were processed

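RNA from sorted LKS cells was made into libraries with NEB kits, per the labels' protocols. Titles gave the groups. The authors deposited 1 table per library with whole read counts and FPKM for each RefSeq transcript. STAR and mm10 are named in the submitters' processing notes, with no versions. How reads were counted, whether strand was used and how multiply mapped reads were treated is not given in the sources used here. A table had 42574 rows for 24982 symbols, and 0 rows named no gene. Rows of a gene repeat shared reads, so the gene count was the highest count over its rows. As a check of the unit, length computed from count and FPKM in single-row genes had a median of 0.983 to 0.992 of the annotated length.

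KO was compared with WT by the quasi-likelihood test of edgeR 4.0.16 (R 4.3.3) after filterByExpr and TMM scaling, with p-values adjusted by Benjamini-Hochberg and a threshold of 0.05. With 1 residual degree of freedom, the spread came from the WT pair moderated over genes, and KO was assumed to vary like WT. The SE and p of a member therefore need not reflect its own WT disagreement. Tpi1, with WT libraries 1.99-fold apart, had an SE of 0.743, and Pgam1, at 1.20-fold, had 0.762. Nothing says that the WT libraries came from separate animals, so p-values reflect a spread between libraries that may be technical. SE was derived from the log2 fold change and the F statistic. The list medians printed are the same when genes with a group at 0 are set to their bound at 3 counts per library. CPM are on library totals, without TMM factors. Intervals are exact (Poisson for levels, Clopper-Pearson for shares and ratios) at 95% and cover counting error only. DESeq2 1.42.0 and limma 3.58.1 (log2(FPKM + 1)) were alternatives.

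The edgeR test was tested on 3 simulations of the KO against WT comparison over 7147 to 7227 genes. It recovered 10.0% of genes raised 4-fold, 72.7% raised 16-fold, 0.667% lowered 4-fold and 4.67% lowered 16-fold, so its power for lower genes was small. Members, lists and tests were chosen with earlier results of these data known. Named genes were the members, the isozymes with a count, and in each other pathway list the genes past the threshold and its 4 most abundant, and the 3 genes nearest in profile to the summed members. The 50-base words, the length groups, the stretches, and the named cell and proliferation markers, copies and isozymes at 0 were chosen after the values were seen. Some listed genes are not reported here by name.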

Additional observations from a re-analysis of the deposited data

How the results depend on the processing

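No member passed the test in the 10 alternative fits with a test, which varied the scaling, the filter on low counts, the gene count, the tool and the unit. The smallest adjusted p was 0.16, for Ldha in DESeq2. Gpi1, Pfkl, Pkm and Ldha kept a negative log2 fold change in all of them, and Gapdh, Pgk1 and Pgam1 a positive one. Tpi1 changed sign to -0.019 with library totals without TMM and to -0.018 with upper-quartile factors, which shift the median of all genes from -0.31 to -0.35 and -0.36. Aldoa changed sign to -0.37 in limma on the FPKM of the row with the highest count, where Pkm reached -8.21 because that row is listed at 0 in KO. With FPKM summed over transcripts, an alternative added after the data were seen, they were 0.54 and -1.23.

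The median of the members was -0.37 in limma on the highest-count row and -0.44 with no low-count filter, which added Eno1. It was -0.37 without WT replicate 1 and 0.024 without WT replicate 2, both values with no test. The number of genes called over all genes, 8, became 0 with at least 10 counts in every library or 50 in any (340 genes had an unadjusted p below 0.05). Summing over rows also gave 0 (793). It became 1 with the mean over rows, 4 with no low-count filter, 3 with upper-quartile factors, and 0 in limma on FPKM of the highest-count row (598) and summed over transcripts (544). The ratio of KO to WT of the summed members ranged from 0.640 to 0.782 over all alternatives, with 0.782 without WT replicate 1 and 0.667 without WT replicate 2. The value of 0.640 came from FPKM of the highest-count row, which for Pkm is listed at 0 in KO. With FPKM summed over transcripts the ratio was 0.779. No paired analysis was possible because the single KO library carries no replicate number. At this depth a member with few counts, such as Gapdh or Pfkl in KO, has wide counting intervals, and a small difference was not detectable.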

Other observations

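The deposited FPKM split Pkm between its splice forms in a way that the counts do not show. Per library (the WT pair, then KO), the M2 transcript was listed at 259, 335 and 0 FPKM and the M1 transcript at 159, 0 and 159 FPKM. The counts of these rows differed by 6, 2 and 7, out of 354, 263 and 101. The WT libraries also differed from each other in M1. Aldoa gave a similar picture, with its transcript NM_001177308 listed at 0, 0 and 192 FPKM beside 167, 104 and 140 counts, nearly those of its other rows.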
